A study of Mus musculus with 12 samples.

Results

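The genes described here are 8 markers of valve interstitial cells and adventitial fibroblasts, *Penk*, *Pi16*, *Pdgfra*, *Cd34*, *Dpt*, *Clec3b*, *Gsn* and *Tcf21*. They were taken by symbol from the 20620 genes of the deposited count table, under the Ensembl identifiers ENSMUSG00000045573 (Penk), ENSMUSG00000024011 (Pi16), ENSMUSG00000029231 (Pdgfra), ENSMUSG00000016494 (Cd34), ENSMUSG00000026574 (Dpt), ENSMUSG00000025784 (Clec3b), ENSMUSG00000026879 (Gsn) and ENSMUSG00000045680 (Tcf21). All 8 passed the filter on low counts, which left 19346 genes for testing. Messenger RNA was sequenced from aortic valves of mice at postnatal day 10, in 12 pools of 3 valves each. The 3 groups had 4 pools each: wildtype, Notch1+/-;Gata5+/- and Notch1+/-;Gata5-/-. Both mutant groups thus carry the label of 1 altered Notch1 copy, and they differ from each other by label in Gata5 alone. How the alleles were made and the strain of the mice are not stated in the labels. The pool of 3 valves is the unit of replication, and a pool is a whole piece of tissue rather than sorted cells.

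The interstitial cells of a heart valve are fibroblasts that build and renew its collagen, proteoglycan and elastin layers, and the root of the valve joins the fibroblast-rich adventitia of the aorta. Pdgfra, the receptor for platelet-derived growth factor A, is a general fibroblast marker, and Cd34, a sialomucin of the cell surface, marks adventitial fibroblasts as well as endothelium. Pi16, a secreted CAP-domain protein, marks a fibroblast state found around vessels in many organs together with Dpt, which encodes the collagen-binding matrix protein dermatopontin. Clec3b encodes tetranectin, a plasminogen-binding lectin. Gsn encodes gelsolin, which severs actin filaments. Tcf21 is a basic helix-loop-helix transcription factor needed for cardiac fibroblasts to form from epicardium, and Penk encodes the precursor of the enkephalins. None of the 8 is expressed by fibroblasts alone. In whole tissue, fewer cells of a type and less RNA per cell cannot be told apart.

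The promoters of Pi16 and Tcf21 are shown because these genes gave the 1 pair of markers that passed the adjusted threshold for Pearson correlation across the pools. By Spearman correlation no pair passed, and the Pearson call was lost when some single pools were left out, as given below. The windows run from 250 bases before the transcription start to 30 bases after it, 5′ to 3′ on the gene's strand, and come from the RefSeq promoter table of build GRCm38.p6, an older build than the GRCm39 used for the counts. Capitals mark the match to a searched motif.
Pi16, chr17:29318632-29318911, plus strand: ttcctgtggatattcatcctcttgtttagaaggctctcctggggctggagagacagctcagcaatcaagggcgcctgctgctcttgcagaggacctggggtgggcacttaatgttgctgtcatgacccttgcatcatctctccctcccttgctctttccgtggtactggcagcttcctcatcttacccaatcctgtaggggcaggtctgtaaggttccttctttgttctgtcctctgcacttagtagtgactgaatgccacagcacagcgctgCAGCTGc
Tcf21, chr10:22820114-22820393, minus strand: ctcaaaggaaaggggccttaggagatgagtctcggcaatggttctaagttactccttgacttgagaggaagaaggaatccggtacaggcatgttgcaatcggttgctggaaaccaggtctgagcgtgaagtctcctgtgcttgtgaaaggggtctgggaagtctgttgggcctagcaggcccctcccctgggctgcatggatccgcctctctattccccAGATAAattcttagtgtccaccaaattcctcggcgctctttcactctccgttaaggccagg
In Pi16 the capitals are the E-box CAGCTG, a letter pattern that factors of the basic helix-loop-helix family can bind, beginning at base 24 from the start. In Tcf21 they are AGATAA, a pattern of GATA factors, beginning 31 bases before the start. The 4 patterns were searched on both strands of the 300-base windows (250 before and 50 after the start) of the 6 markers with an entry, Pi16, Pdgfra, Cd34, Dpt, Gsn and Tcf21; Penk and Clec3b had none. CAGCTG also occurred in Dpt, at 200 bases before and 7 after the start, and in the first and second of the 3 Gsn promoters. GTGGGAA, a pattern of the Notch pathway factor RBPJ, was found in the first Gsn promoter and the third, TGATAA in none, and Pdgfra and Cd34 held no match to any of the 4. Over all 32851 promoters of the table, 16.3% held CAGCTG, 11.2% AGATAA, 9.05% TGATAA and 6.38% GTGGGAA. These matches describe letters and are not binding sites.

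Total counts were 13866604 to 25059653 per pool. Gata5 had 0 counts in all 4 libraries labelled Notch1+/-;Gata5-/-, where 3 counts would be 0.124 to 0.207 CPM (library-scaled counts, normalized by TMM), against 0.845 to 2.91 CPM in wildtype and 0.728 to 5.66 CPM in the libraries labelled Notch1+/-;Gata5+/-. Notch1 was not lower in the libraries labelled heterozygous: its log2 difference from wildtype was 0.53 in Notch1+/-;Gata5-/- and 0.42 in Notch1+/-;Gata5+/- libraries, neither called by edgeR (adjusted p = 0.582 and 1). The groups are therefore named below by their labels, as double-heterozygous-labelled and Gata5-null-labelled. Gata5-null-labelled replicate 3 stood apart, with the lowest total, 6000 genes at 0 and a mean Spearman correlation with the other pools of 0.891. Wildtype replicate 2 stood apart less, with 3208 genes at 0 and 0.923, against 1017 to 2908 genes and 0.930 to 0.947 in the other 10. Valve interstitial genes were abundant in every pool, with 21 of them (among them Postn, Vcan, Col1a1 and Col3a1) summing to 29310 to 38284 CPM, and so were 10 cardiomyocyte genes, summing to 23246 to 54135 CPM.

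All 8 markers were detected in all 12 pools, at levels spread over more than an order of magnitude. Per kilobase of merged exon, Dpt was highest at 177 ± 13.8 CPM per kb (SD, n = 12 pools) and Gsn next at 105.5 ± 14.2. Cd34 stood at 37.5 ± 4.72 and Pdgfra at 23.5 ± 1.91 CPM per kb. These 4 genes kept this order in 12 of 12 pools, and the ranges of neighbouring genes did not overlap. The other 4 lay close together: Tcf21 at 13.2 ± 3.01, Clec3b at 10.9 ± 4.65, Penk at 10.6 ± 5.43 and Pi16 at 9.82 ± 2.81 CPM per kb. Tcf21 was above Clec3b in 7 of 12 pools, Clec3b above Penk in 6 and Penk above Pi16 in 7, so that their order did not hold beyond the spread. Among 18793 tested genes with a known exon length, the mean levels ranked from the 80.6th percentile (Pi16) to the 99.5th (Dpt).

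**Figure D1:**
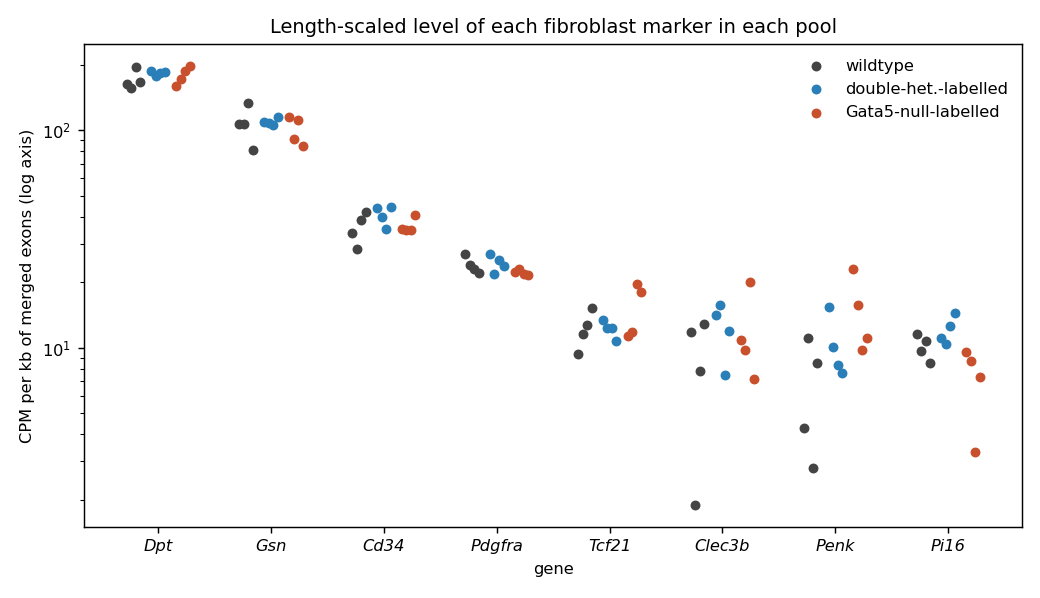
Level of each marker in each pool, in CPM per kb of merged exons on a log axis; each dot is 1 pool and the colours are the 3 genotype labels. Dpt, Gsn, Cd34 and Pdgfra form separate steps, whereas Tcf21, Clec3b, Penk and Pi16 overlap.

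The markers also differed in how steady they were. The coefficient of variation over the 12 pools was 7.76% for Dpt and 8.11% for Pdgfra, whose highest pool was 1.27-fold and 1.25-fold its lowest. It was 51.1% for Penk and 42.5% for Clec3b, whose extremes lay 8.25-fold and 10.5-fold apart. Penk and Clec3b also had the fewest counts of the 8, 88 to 802 and 40 to 309 per pool. Within groups, the biological coefficient of variation estimated by edgeR was 0.146 for Pdgfra, 0.147 for Dpt and 0.159 for Cd34, against 0.382 for Penk and 0.461 for Clec3b, so the tests below resolve much smaller differences for the former.

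None of the 8 markers was called in any of the 3 comparisons by edgeR's quasi-likelihood test (Benjamini-Hochberg adjustment over all genes, threshold 0.05). Few genes of any kind were called: 5 of 19346 (0.0258%) for Gata5-null-labelled against wildtype, 0 (0%) for double-heterozygous-labelled against wildtype and 0 (0%) for both mutant groups against each other. At an unadjusted p under 0.05 the shares of all genes were 5.4% (1044 genes), 1.25% (242) and 3.18% (616). Of the markers, 1 (Penk), 0 and 1 (Pi16) passed that looser level. DESeq2 called 45, 1 and 3 genes in the 3 comparisons and no marker. Both mutant groups are set against the same wildtype pools, so their differences from wildtype are not independent.

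**Figure D2:**
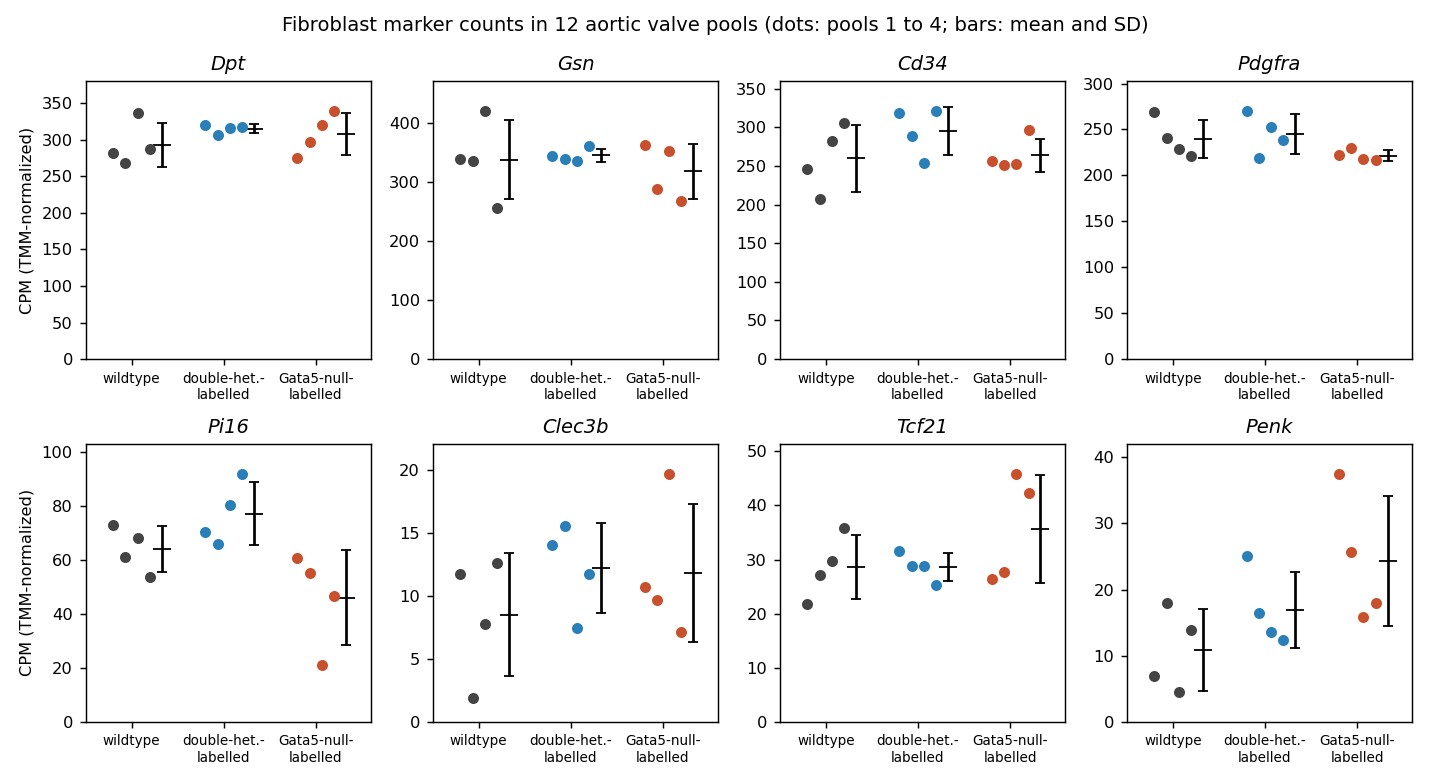
TMM-normalized CPM of the 8 markers, with 1 dot per pool (replicates 1 to 4 from left to right in each group) and bars for the mean and SD of 4 pools. The groups overlap in every panel except for Pi16 between the 2 mutant groups, where the highest Gata5-null-labelled pool is 60.9 and the lowest double-heterozygous-labelled one 66.1 CPM.

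Penk, the enkephalin precursor, had the largest fold difference from wildtype of the 8. Its CPM in wildtype replicates 1 to 4 was 6.97, 18.0, 4.55 and 13.9, in the double-heterozygous-labelled pools 25.1, 16.5, 13.6 and 12.4, and in the Gata5-null-labelled pools 37.6, 25.7, 15.9 and 18.0. The means were 10.9 ± 6.21, 16.9 ± 5.75 and 24.3 ± 9.80 CPM (SD, n = 4 each). The groups overlapped: 2 of 4 Gata5-null-labelled pools were above the highest wildtype pool. For Gata5-null-labelled against wildtype the fold was 2.24 (95% interval 1.29 to 3.86; edgeR p = 0.00623, adjusted p = 0.839), and the exact permutation test gave p = 0.0857, where the smallest possible value is 0.0286. Penk ranked 140th among 19346 genes by p and was not called. The log2 difference ran from 0.89 without Gata5-null-labelled replicate 1 to 1.53 without wildtype replicate 2, the wildtype pool that stood apart and had the highest Penk of its group. Double-heterozygous-labelled pools had 1.56-fold the wildtype mean (0.900 to 2.69). The authors' deposited table gives Penk a log2 fold change of 1.18 with an adjusted p of 0.399. A non-coding gene on the opposite strand, A830012C17Rik, covers 14.3% of the Penk exon bases, and its own mean level was 0.521 to 0.678 CPM in the 3 groups. Of the other markers, opposite-strand genes cover 3.49% of the exon bases of Pi16, 2.03% of Cd34 and up to 4.55% of Pdgfra.

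Enkephalins are cut from the Penk precursor by proprotein convertases and trimmed by carboxypeptidase E, the product of Cpe. Of 9 genes for opioid precursors, processing enzymes and receptors, 5 were tested, and 4 of them were lower in the Gata5-null-labelled than in the wildtype mean, with none called. Cpe was the most abundant, at 565.4, 627.5, 546.5 and 668.8 CPM in wildtype, 450.7, 492.4, 490.0 and 516.8 in the double-heterozygous-labelled and 428.1, 368.5, 379.3 and 507.9 in the Gata5-null-labelled pools. Double-heterozygous-labelled and Gata5-null-labelled pools lay wholly below wildtype in Cpe, by 0.30 ± 0.12 (SE) and 0.52 ± 0.12 on the log2 scale (edgeR adjusted p = 1 and 0.341). Such a separation towards lower values was found for 0.915% of all tested genes in the former comparison and 1.99% in the latter. The direction of the Cpe difference is opposite to that of Penk, and neither passed the adjusted threshold. Pcsk1 and Pdyn, a convertase and the dynorphin precursor, were low. Pdyn had group means of 0.134 to 1.25 CPM. Pcsk1, the 1 tested gene of this list that was higher, was at 0.442 ± 0.884 CPM in wildtype. Its means were 0.225 ± 0.268 in double-heterozygous-labelled and 2.12 ± 2.55 in Gata5-null-labelled pools, with an SD above the mean in each group.

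Pi16 was the 1 marker whose groups separated. Its CPM was 73.1, 61.2, 68.4 and 53.8 in wildtype, 70.5, 66.1, 80.4 and 92.1 in the double-heterozygous-labelled and 60.9, 55.4, 21.1 and 46.6 in the Gata5-null-labelled pools. The means were 64.1 ± 8.44, 77.3 ± 11.6 and 46.0 ± 17.6 CPM. All 4 Gata5-null-labelled pools lay below all 4 double-heterozygous-labelled pools, as did 2.03% of all tested genes. The Gata5-null-labelled mean was 0.596-fold the double-heterozygous-labelled mean (95% interval 0.426 to 0.834; edgeR adjusted p = 1). The exact permutation test gave p = 0.0286, its smallest possible value, and 0.527 after Benjamini-Hochberg adjustment over the 24 tests of 8 markers in 3 comparisons. Gata5-null-labelled replicate 3, with 21.1 CPM, set part of the size: without it the log2 difference was -0.50, compared with -0.75 with all pools. Against wildtype, the Gata5-null-labelled log2 difference was -0.48 (interval -0.96 to 0.0059; adjusted p = 0.942), or -0.23 without that replicate. Double-heterozygous-labelled pools were at 1.21-fold wildtype (0.863 to 1.68). In the comparison of both mutant groups, the 10 smooth muscle genes listed summed to 5370 to 6176 CPM in double-heterozygous-labelled and 4054 to 5502 CPM in Gata5-null-labelled pools, and all 10 were lower in the latter mean. Their part in the Pi16 difference was not tested.

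Other genes of the CAP superfamily and lectins related to tetranectin had mixed signs. Of 6 tested, 3 were higher and 3 lower in Gata5-null-labelled than in wildtype pools, and 4 were higher and 2 lower than in double-heterozygous-labelled pools, with none called. Glipr1, a CAP-domain gene chosen after its values were seen, had the signs of Pi16 in all 3 comparisons. Its log2 differences from wildtype were -0.40 ± 1.05 (SE) in Gata5-null-labelled and 0.56 ± 1.05 in double-heterozygous-labelled pools. Gata5-null-labelled pools differed from double-heterozygous-labelled pools by -0.96 ± 1.06. Each difference was smaller in size than its SE, at low group means of 1.86 to 3.62 CPM, so no direction can be read for Glipr1. Crispld1, a secreted CAP-domain protein, had the smallest p, with means of 42.5 ± 7.92, 60.7 ± 9.90 and 80.1 ± 23.9 CPM in wildtype, double-heterozygous-labelled and Gata5-null-labelled pools. The Gata5-null-labelled values were 98.8, 87.4, 89.2 and 45.1 CPM, so that replicate 4 fell within the wildtype range of 35.8 to 53.9 (log2 difference 0.91 ± 0.205 SE, edgeR adjusted p = 0.282). Crispld2 lay 0.34 ± 0.156 lower on the same scale (adjusted p = 0.872).

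The surface proteins Pdgfra and Cd34 had coefficients of variation of 8.11% and 12.6% over the 12 pools. Pdgfra was at 268.6, 240.5, 229.1 and 221.4 CPM in wildtype, 270.3, 219.2, 252.5 and 238.6 in the double-heterozygous-labelled and 222.6, 229.3, 217.7 and 216.5 in the Gata5-null-labelled pools. The Gata5-null-labelled mean of 222 ± 5.82 CPM was 0.923-fold wildtype with a 95% interval of 0.783 to 1.09, so a fold below 0.783 lies outside it. Against double-heterozygous-labelled pools the fold was 0.904 (0.766 to 1.07). For Cd34 the pools read 245.7, 206.9, 282.2 and 306.4 in wildtype, 318.2, 289.4, 254.6 and 321.5 in the double-heterozygous-labelled and 256.2, 251.8, 252.0 and 296.1 CPM in the Gata5-null-labelled group. Cd34 was at 1.02-fold wildtype in the Gata5-null-labelled (0.842 to 1.22) and 1.14-fold in the double-heterozygous-labelled pools (0.944 to 1.37). Endothelial cells also express Cd34, and 8 endothelial genes summed to 729 to 1151 CPM over the 12 pools with overlapping groups.

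Neither the PDGF family nor the relatives of Cd34 held a called gene. Of 5 genes, the 4 PDGF ligands and the beta receptor, 3 were higher and 2 lower in Gata5-null-labelled than in wildtype pools. Pdgfd, a ligand of the beta receptor, had means of 52.4 ± 8.04, 40.2 ± 13.2 and 34.8 ± 12.3 CPM in the order wildtype, double-heterozygous-labelled and Gata5-null-labelled (log2 difference of the last from wildtype -0.59 ± 0.245, edgeR adjusted p = 0.86). Pdgfrb, the receptor of mural cells and fibroblasts, was at 218 ± 32.1, 227 ± 17.7 and 253 ± 42.0 CPM. Podxl and Podxl2, sialomucins of the Cd34 family, differed from wildtype by 0.08 ± 0.158 and -0.36 ± 0.224 on the log2 scale in the Gata5-null-labelled pools.

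Dpt and Gsn, the most abundant markers per length, differed little between groups. Dpt was at 281.8, 267.9, 337.2 and 288.1 CPM in wildtype, 320.9, 306.5, 315.8 and 317.4 in the double-heterozygous-labelled and 274.9, 297.0, 320.7 and 339.9 in the Gata5-null-labelled pools. The Dpt fold against wildtype was 1.05 (95% interval 0.891 to 1.24) in Gata5-null-labelled and 1.07 (0.911 to 1.26) in double-heterozygous-labelled pools. Gsn was at 338.3, 335.1, 420.0 and 255.4 CPM in wildtype, 344.4, 339.0, 334.4 and 360.7 in the double-heterozygous-labelled and 361.6, 288.0, 352.3 and 267.5 in the Gata5-null-labelled pools. Its folds against wildtype were 0.941 (0.774 to 1.14) and 1.02 (0.840 to 1.24), in the order Gata5-null-labelled and double-heterozygous-labelled. The double-heterozygous-labelled pools were the most alike in both genes, with an SD of 6.17 CPM for Dpt and 11.5 CPM for Gsn, against 28.3 to 30.2 and 46.7 to 67.2 in the other groups; these SDs were not tested against each other. Of 5 tested relatives of gelsolin, including Svil and Flii, none reached an unadjusted edgeR p of 0.05 in any comparison. Among 4 partners of decorin and dermatopontin, Fmod, the collagen-binding proteoglycan fibromodulin, had the largest log2 difference from wildtype in Gata5-null-labelled pools, 0.43 ± 0.26 (edgeR adjusted p = 1).

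Clec3b was low and variable. The values were 11.7, 1.88, 7.76 and 12.7 CPM in wildtype, 14.1, 15.6, 7.46 and 11.8 in the double-heterozygous-labelled and 10.7, 9.71, 19.8 and 7.15 in the Gata5-null-labelled pools. Both extremes fell in the pools that stood apart, the lowest in wildtype replicate 2 and the highest in Gata5-null-labelled replicate 3. The Gata5-null-labelled fold against wildtype was 1.39 with an interval of 0.723 to 2.66, and without both pools the log2 difference of 0.47 turned to -0.22. No direction can be read for Clec3b at this spread.

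Tcf21 had the highest values in 2 Gata5-null-labelled pools. It was at 21.8, 27.1, 29.7 and 35.9 CPM in wildtype, 31.5, 28.9, 28.8 and 25.3 in the double-heterozygous-labelled and 26.5, 27.7, 45.9 and 42.4 in the Gata5-null-labelled pools. Replicates 3 and 4 of the last group were above every other pool, and replicates 1 and 2 were within the wildtype range. The fold against wildtype was 1.24 (0.906 to 1.70; edgeR adjusted p = 1), and without replicate 3 the log2 difference was 0.18 in place of 0.31. Double-heterozygous-labelled and wildtype means were both 28.6 CPM, with a 95% interval of the fold from 0.729 to 1.37. Of 7 related factors and dimer partners, 6 were higher and 1 lower in Gata5-null-labelled than in wildtype pools, with none called. The median log2 difference of 0.56 rests on factors of low count, such as Tcf15 at 2.46 and 3.84 CPM in wildtype and Gata5-null-labelled means. Tcf4, an abundant dimer partner, was at 315 ± 54.5 and 387 ± 43.8 CPM in these groups (log2 difference 0.30 ± 0.129, edgeR adjusted p = 0.87). Genes of epicardium and mesothelium, the lineage from which Tcf21-expressing fibroblasts arise, were lower in the mean in 8 of 10 cases (median log2 difference -0.35), also with none called. Over all genes tested, 46.1% were higher, with a median of -0.03. The largest differences of this list, in Krt19, Krt8 and Wt1, had SEs of 0.78 to 1.17 and low group means of 1.54 to 9.88 CPM. Wt1 was named for the size of its difference and not by its p. Aldh1a2, 1 of the 2 higher genes, differed by 0.50 ± 0.381. In double-heterozygous-labelled pools, 7 of these 10 genes were lower than in wildtype (median -0.10), beside 50.3% higher over all genes tested.

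**Figure D3:**
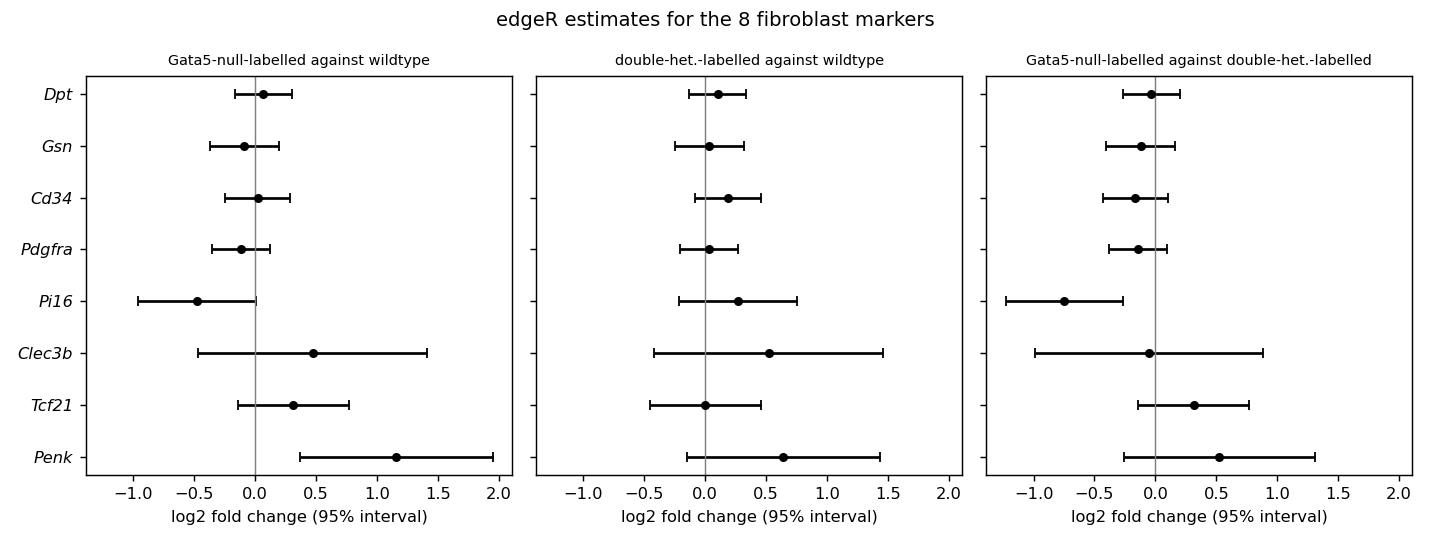
log2 fold changes of the 8 markers from the edgeR fit, with 95% intervals, for the 3 comparisons. The intervals of Penk in Gata5-null-labelled against wildtype and of Pi16 between both mutant groups leave out 0 before adjustment; those of Pdgfra, Cd34, Dpt and Gsn are narrow around 0.

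The signs of the 8 markers were counted in each comparison, with no test. Against wildtype, 5 were higher and 3 lower in Gata5-null-labelled pools (median log2 difference 0.04, compared with -0.03 over all genes tested), and 7 were higher and 1 lower in double-heterozygous-labelled pools (0.14 against 0.00). Between both mutant groups, 2 were higher and 6 lower in Gata5-null-labelled pools (-0.08 against -0.04). Over all genes tested, 46.1%, 50.3% and 44.5% were higher in the 3 comparisons. The mean of the 8 standardized levels was 0.113 to 0.769 in double-heterozygous-labelled pools, above the -0.773 to 0.102 of wildtype and the -0.234 to 0.029 of Gata5-null-labelled pools. The gap to wildtype was small, between 0.113 in double-heterozygous-labelled replicate 2 and 0.102 in wildtype replicate 3. The lowest value belongs to wildtype replicate 2, which stood apart. This is a description without a test. From pool to pool, the markers showed no common sign. Of their 28 pairs, 14 had a positive and 14 a negative Pearson correlation of log2 CPM over the 12 pools, with a median r of -0.02.

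Pi16 and Tcf21 were the 1 pair of 28 that passed the adjusted threshold, and the relation was inverse. Pearson's r was -0.79 over the 12 pools (permutation p = 0.00125, adjusted p over 28 pairs = 0.035), and Spearman's rho was -0.63 (permutation p = 0.032, adjusted p = 0.321). After subtraction of the group means, r was -0.77 (permutation p = 0.00119, adjusted p = 0.0333) and rho -0.81 (permutation p = 0.00246, adjusted p = 0.0689), so the relation was also there within genotypes. It rested on a few pools, however. Without the 2 pools farthest from the median of Pi16, double-heterozygous-labelled replicate 4 and Gata5-null-labelled replicate 3, r was -0.65 (permutation p = 0.0447, adjusted p = 0.25). Leaving out single pools gave r from -0.82 to -0.66, and the adjusted call was lost without wildtype replicate 4 (adjusted p = 0.0907), double-heterozygous-labelled replicate 4 (0.0689), Gata5-null-labelled replicate 3 (0.195) or Gata5-null-labelled replicate 4 (0.262). Gata5-null-labelled replicate 3 had the lowest Pi16 and the highest Tcf21 of all pools, and its summed epicardial and mesothelial genes were also the lowest, at 55.1 CPM against 97.9 to 161.6 CPM in wildtype. Gata5-null-labelled replicate 4, second in Tcf21, had the highest such sum at 162.4 CPM, and Gata5-null-labelled replicate 2 and double-heterozygous-labelled replicate 4 had 75.2 and 81.7 CPM with Tcf21 at 27.7 and 25.3 CPM. The part of tissue makeup in the relation was not tested. Cd34 had the strongest positive relation, with Dpt (r = 0.60, permutation p = 0.040, adjusted p = 0.362), which did not pass.

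**Figure D4:**
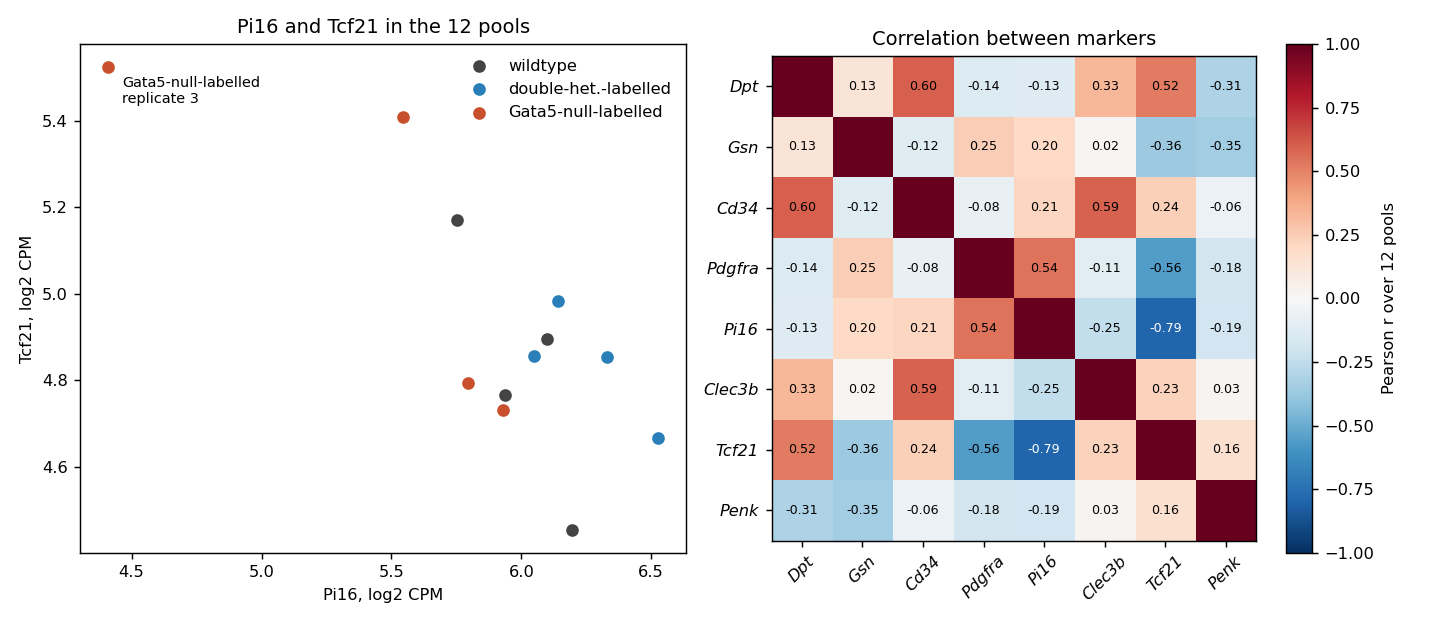
Left, Pi16 against Tcf21 in log2 CPM, with 1 dot per pool; right, Pearson r over 12 pools for every pair of markers. Gata5-null-labelled replicate 3 lies at the upper left end of the Pi16 and Tcf21 relation (r = -0.79), and no other pair passed the adjusted threshold.

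Genes were ranked by their Pearson r with the mean of the 8 standardized levels over the 12 pools, among 13893 genes with a mean log2 CPM of at least 1. The highest were C77080 (0.85), Gm45854 (0.85), Ece2 (0.83), Tfam (0.81), Stat5b (0.81), Inhba (0.80), Zfp820 (0.79) and Tmem140 (0.79). Among these, Ece2 encodes an endothelin-converting enzyme, Stat5b a cytokine-activated transcription factor and Inhba the activin A subunit. The mean followed its own members unevenly, with r of 0.80 for Cd34, 0.67 for Dpt and 0.62 for Clec3b. For the other members r was 0.26 for Gsn, 0.25 for Pdgfra, 0.20 for Pi16, 0.14 for Tcf21 and 0.03 for Penk. The genes named are therefore like a mean that mostly follows Cd34, Dpt and Clec3b, and not like the set as a whole. These values are a description and were not tested.

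A wider list of 31 tested genes of adventitial and universal fibroblasts was examined beside the 8 markers. It was written with earlier results of these data known, so its counts beside the shares of all genes describe and do not test. Against wildtype, 22 of the 31 were lower and 9 higher in the mean, with a median log2 difference of -0.07, compared with 46.1% higher and a median of -0.03 over all genes tested. At an unadjusted edgeR p under 0.05 there were 9 genes, all 9 lower, whereas 3.36% of all tested genes were lower at that level; none was called after adjustment. The 9 were Entpd2, Efhd1, Pcolce2, Creb5, Igfbp5, Col14a1, Sema3c, Tnxb and Col15a1. Leaving out 1 wildtype or Gata5-null-labelled pool at a time gave 6 to 10 lower genes at that level, with 6 without Gata5-null-labelled replicate 3 or wildtype replicate 4, and with 10 when replicate 4 of the Gata5-null-labelled pools was left out. The signs over the whole list depended on single pools: without wildtype replicate 2, 15 genes were lower and 16 higher with a median of 0.00089. The median was -0.17 when wildtype replicate 3 was left out and -0.25 when Gata5-null-labelled replicate 4 was. Omitting replicate 1 or 2 of the Gata5-null-labelled pools gave -0.11. Without both pools that stood apart, 5 genes were lower and 1 higher at the unadjusted level, with 15 lower and 16 higher in all and a median of 0.03. In double-heterozygous-labelled pools 16 were lower and 15 higher than in wildtype.

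The 3 genes of this list with the smallest p in any comparison were Col14a1, Creb5 and Entpd2. Col14a1, a fibril-associated collagen, was at 1435.4, 1682.1, 1312.9 and 1745.9 CPM in wildtype, 1125.2, 1238.3, 1296.4 and 1287.9 in the double-heterozygous-labelled and 1127.3, 1019.5, 1019.6 and 1443.3 in the Gata5-null-labelled pools. All double-heterozygous-labelled pools lay below wildtype, as for 0.915% of all tested genes, and Gata5-null-labelled replicate 4 was inside its range (log2 differences -0.32 ± 0.124 and -0.42 ± 0.124, edgeR adjusted p = 1 and 0.63). Creb5, a transcription factor of the CREB family, was at 120 ± 11.1 CPM in wildtype and 84.9 ± 21.3 in Gata5-null-labelled pools (log2 difference -0.50 ± 0.159, adjusted p = 0.77). Entpd2, an ecto-enzyme that breaks down extracellular ATP, was at 11.3, 14.6, 13.4 and 5.86 CPM in wildtype and 3.75, 1.36, 0 and 4.21 in Gata5-null-labelled pools, with no overlap; the 0 belongs to replicate 3, where 3 counts would be 0.207 CPM. The adjusted p of Entpd2 was 0.839. Efhd1, Pcolce2 and Col15a1 were also without overlap, which makes 4 of 31 genes of the list against 1.99% of all tested genes, with Pcolce2, an enhancer of procollagen processing, at 40.2 ± 4.13 and 24.9 ± 9.75 CPM; these were chosen after their values were seen.

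**Figure D5:**
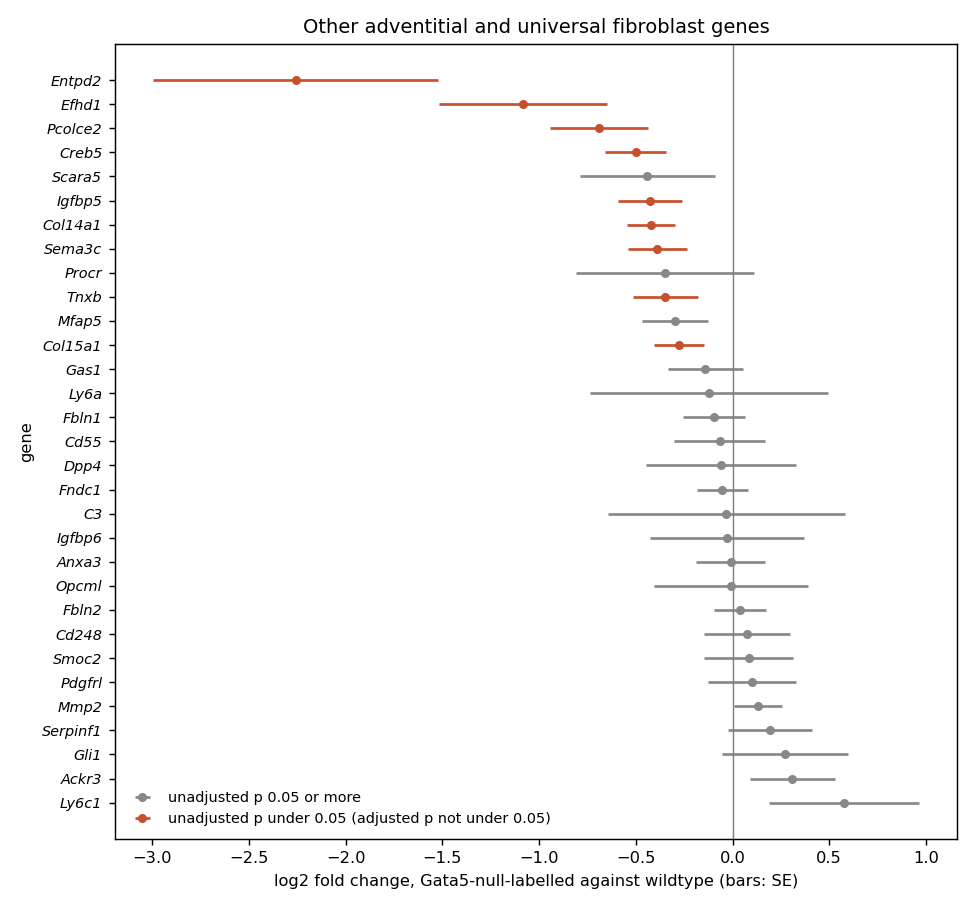
log2 fold change (bars: SE) of the 31 other adventitial and universal fibroblast genes, Gata5-null-labelled against wildtype. The 9 coloured genes have an unadjusted p under 0.05 and all lie below 0; none has an adjusted p under 0.05.

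Genes of the valve interstitium leaned the other way in number, with 13 of 21 higher and 8 lower in Gata5-null-labelled than in wildtype pools (median 0.07). Over all genes tested, 46.1% were higher, with a median of -0.03. This list was also written with earlier results of these data known. At an unadjusted edgeR p under 0.05, 5.4% of all tested genes passed in either direction, and 3.36% were lower. None of this list was called, and 3 passed the unadjusted level, all 3 higher. That number was 1 without wildtype replicate 1, and 6 without wildtype replicate 2 or Gata5-null-labelled replicate 4. The median was 0.03 without wildtype replicate 1 or Gata5-null-labelled replicate 1, and 0.14 without wildtype replicate 2 or Gata5-null-labelled replicate 3. Wif1, a secreted Wnt inhibitor, was at 38.8 ± 2.64 CPM in wildtype, 58.9 ± 24.6 in double-heterozygous-labelled and 62.4 ± 14.9 in Gata5-null-labelled pools, all 4 of the last above all wildtype pools, as for 0.936% of tested genes (log2 difference 0.69 ± 0.228, edgeR adjusted p = 0.839). Acan, the cartilage proteoglycan aggrecan, was 0.44 ± 0.195 and Tbx20, a T-box factor of the valve, 0.25 ± 0.116 higher on the log2 scale (adjusted p = 0.872 for each). Without both pools that stood apart, 17 of the 21 were higher and 4 lower in Gata5-null-labelled than in wildtype pools. The double-heterozygous-labelled pools had 14 of the 21 higher and 7 lower than wildtype (median 0.04), beside 50.3% higher over all genes tested. Leaving out both pools that stood apart gave 17 higher and 4 lower there too. Whether the adventitial and valve lists differ from each other was not tested. Beside both lists, the 10 smooth muscle genes summed to 5940 to 7975 CPM in wildtype, 5370 to 6176 in double-heterozygous-labelled and 4054 to 5502 in Gata5-null-labelled pools. Of these 10, 4 were called lower in Gata5-null-labelled pools against wildtype, where 5 of all 19346 genes (0.0258%) were called. The smooth muscle list too was written with earlier results of these data known. The part of its genes in the values of the adventitial and valve lists was not tested.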

How the data were processed

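Poly-A selected RNA of 12 pools was sequenced. Per the submitters' processing notes, the authors used Trim Galore, STAR 2.7.10b, build GRCm39 and DESeq2 1.34.0; which tool counted reads, with which annotation and strand setting, is not given in the sources used here, and antisense overlaps may therefore share reads. The deposited table of raw counts holds whole numbers per gene and pool. A second deposited table by the authors holds p-values, log2 fold changes, 2 scores (standard error and Wald statistic) and a signal (mean of normalized counts), with no comparison named. Its log2 values matched a DESeq2 refit of Gata5-null-labelled against wildtype, with a largest difference of 1.66e-04.

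The counts entered edgeR 4.0.16 under R 4.3.3 (filterByExpr, TMM, robust quasi-likelihood fit of all 12 pools with a term per group), with Benjamini-Hochberg adjustment over 19346 genes. The code was checked on simulated data. Group means were compared by exact permutation tests and pairs of markers by 100000 permutations of log2 CPM (prior count 2). Exon lengths, overlaps and 6077 symbols came from an annotation of the older build GRCm38. Floors cover counting error only, as PCR reads that carry no molecular identifier are not independent. The markers and gene lists were chosen with earlier results of these data known. Genes named from a list were the 3 with the smallest p (2 for short lists); others are marked. Alternatives were other normalizations, filters, DESeq2 1.42.0, limma-voom 3.58.1, a replicate block and left-out pools.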

Additional observations from a re-analysis of the deposited data

Results flagged for a closer look

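Cd34 in Gata5-null-labelled replicate 4 was at 296.1 CPM, far from the other 3 pools of its group, which lay between 251.8 and 256.2 CPM. Of the 24 groups of 4 pools examined (8 markers in 3 genotypes) it was the 1 with a pool standing so far apart, and chance alone marks about 1 group in 20. The value lies within the range of the wildtype and the double-heterozygous-labelled pools.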

How the results depend on the processing

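No marker was called in any comparison under any alternative (528 values, lowest adjusted p 0.221), and 30 of these values changed sign. For Gata5-null-labelled against wildtype, where 5 genes were called in all, DESeq2 called 45, edgeR on the 8 pools compared alone 0, the fit without both pools that stood apart 2, and leaving out single pools gave 2 to 21. DESeq2 called 1 gene for double-heterozygous-labelled against wildtype and 3 between the mutant groups, where the fit without both pools called 2 and single left-out pools gave 0 to 1. With the replicate number as a replicate block, 7 genes were called for Gata5-null-labelled against wildtype. Same-numbered pools did not deviate together as a rule (r -0.025 to 0.213, 1 of 12 over 0.1, and 8 of 24 best matches with the own number). The numbers were therefore not taken as pairs. Pools numbered 4 were more alike. Their r was 0.213 between wildtype and double-heterozygous-labelled, 0.098 between the mutant groups and 0.093 between wildtype and Gata5-null-labelled pools. Pairs with different numbers had a median r of -0.002 and a highest of 0.123. Whether the pools numbered 4 share a batch was not tested. The r of Pi16 and Tcf21 was -0.6454 without the 2 pools of most extreme Pi16, -0.6833 without both pools that stood apart (chosen after seeing the data), and -0.8182 to -0.6585 without single pools.

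Signs of log2 differences changed as follows, and the cause was not tested. Without both pools, Cd34 (-0.04617) and Clec3b (-0.2155) against wildtype in Gata5-null-labelled pools. For double-heterozygous-labelled against wildtype, Gsn was -0.0002877 with voom quality weights, and Tcf21 was 0.001526 without a filter, 0.01411 with voom, 0.09961 with quality weights, 0.003539 with 8 pools and 0.03355 with the block. Dpt between the mutant groups was 0.001686 with RLE and 0.001636 with DESeq2. Leaving out single pools gave, for Gata5-null-labelled against wildtype, -0.06026 to 0.1079 for Cd34 and -0.2007 to 0.03508 for Gsn. For double-heterozygous-labelled against wildtype it gave -0.01845 to 0.09155 for Pdgfra, -0.07937 to 0.1563 for Gsn and -0.1087 to 0.1286 for Tcf21. Between the mutant groups it gave -0.08568 to 0.03501 for Dpt and -0.4054 to 0.1278 for Clec3b. Clec3b and Penk had the fewest counts, 40 to 309 and 88 to 802 per pool, and the highest biological coefficients of variation of the 8, 0.461 and 0.382.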
